A study of Sorghum bicolor with 14 samples.

Results

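Middle internodes of droughted pots and of a watered soil bed, both harvested at booting, were compared gene by gene in CSV24SS, a variety of Sorghum bicolor of the sweet type, whose stem juice is harvested for its sucrose. Booting is the stage at which the panicle is still enclosed by the flag leaf sheath. The B group was sown in a soil bed given nitrogen fertiliser and was watered and weeded at regular intervals. The D1 group grew as 1 plant per pot, had water withheld from the flag leaf stage on, and was harvested when the soil held about 13% moisture, the wettest of the 3 drought readings. Each group had 2 samples, so 4 of the 14 samples of the series stand behind the comparison. The other groups are floral initiation (FI), the milky stage (MS) and soft dough (SD) from the soil bed, and pots at about 7% (D2) and 2% (D3) moisture. Pots without drought are not among the groups, so pot against bed, fertiliser and water supply cannot be told apart, and a difference between D1 and B is a difference between those 2 ways of growing and watering the plants.

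Genes were kept when their name was found once in each of the 2 deposited tables and when they reached 1 FPKM in B, D1, D2 or D3. FPKM is the number of fragments assigned to a gene after division by gene length and library depth. This left 16817 of 32028 matched genes (52.5%). Just inside the limit lay Sobic.008G112500, whose highest value was 1.00004 FPKM, and just outside it Sobic.001G042500 at 0.999538 FPKM. Of the genes kept, 15202 reached 1 FPKM in B and 15540 in D1, and 441 reached it in neither and were kept through D2 or D3.

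Each group has a single value per gene in the tables, which hides its 2 samples, so replicate error is unknown for every difference given here. For that reason there are no tests, and higher and lower describe 2 values. The B and D1 values come from separate tables taken as normalised separately, and the depth behind them is unknown. Differences are in log2(FPKM + 1), with D1 minus B, which makes them too small where expression is weak. Folds were taken from FPKM without the added 1, and those against values far below 1 FPKM rest on very little signal. A gene was called different at a log2 difference of at least 1, that is 2-fold. The tissue is bulk internode, in which fewer cells of a type and less RNA per cell cannot be told apart.

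A grass internode gains its stiffness when elongation ends and its fibres and vessels lay down secondary walls of cellulose, xylan and lignin. Lignin is built from monolignols, which are made from phenylalanine through the phenylpropanoid pathway. In sweet sorghum the same internode also fills its pith cells with sucrose, through plasma membrane and vacuolar sugar transporters. Plants short of water are known to make protective proteins such as dehydrins and compatible solutes such as proline, and sorghum also makes dhurrin, a cyanogenic glucoside that releases hydrogen cyanide when tissue is damaged. The tables hold identifiers only, and the gene names used here are those under which the loci have been published.

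D1 and B differed at least 2-fold for 3851 genes, with more of them higher than lower in D1. In D1, 2244 of 16817 genes were higher (13.3%) and 1607 were lower (9.56%), which left 12966 (77.1%) within 2-fold. The median difference was 0.06, and the 10th and 90th percentiles were -0.96 and 1.19. At least 8-fold differences were seen for 162 genes higher and 148 lower in D1. From under 1 FPKM in B, 81 genes stood at 10 FPKM or more in D1, and 69 genes showed the opposite. Pearson's r across genes on the log2 scale was 0.869, a description over genes, which are not independent replicates. Values of D2 and D3 are given beside those of D1 below, and any difference of theirs from B shares the B column with this one.

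**Figure D1:**
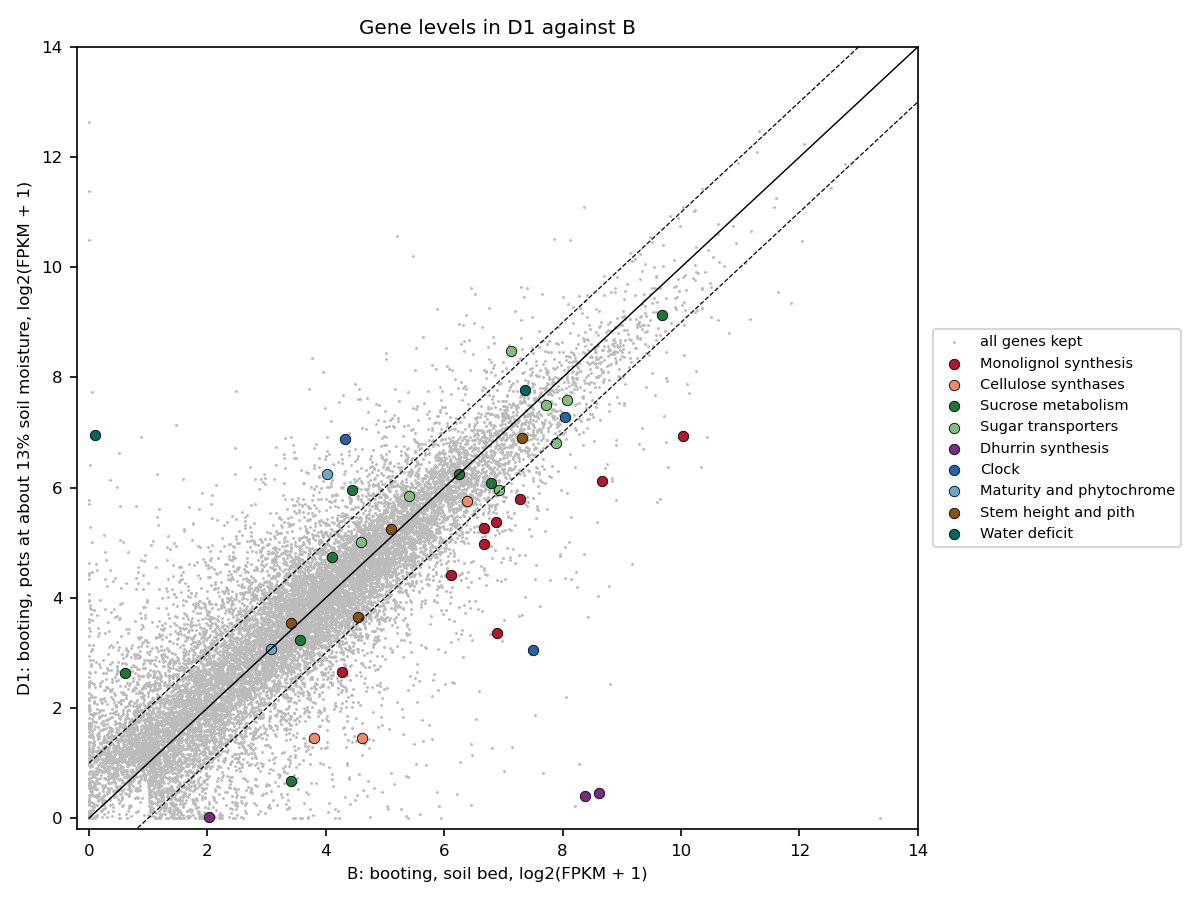
Level of each of 16817 genes in B (horizontal axis) and D1 (vertical axis), both in log2(FPKM + 1), with 1 value per group. The solid line marks equal values and the dashed lines 2-fold differences. All 9 monolignol genes lie below the lower dashed line, 2 dhurrin genes lie near the bottom right, and the dehydrin gene lies at the upper left.

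Of 47 listed identifiers in 9 lists, 41 were measured as genes of their own. Of these 17 were at least 2-fold lower in D1, 6 were higher and 18 lay within 2-fold, beside 9.56% lower and 13.3% higher over all genes, so that the higher share was near that of all genes. The lists were chosen with earlier results of these data known, so these shares describe the lists and test nothing. The lower genes included all of the monolignol and dhurrin lists. The higher genes were 1 sucrose synthase, 1 sucrose phosphate synthase, the vacuolar sucrose transporter SUT4, the clock gene TOC1, the phytochrome gene PHYC and the dehydrin gene.

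**Figure D2:**
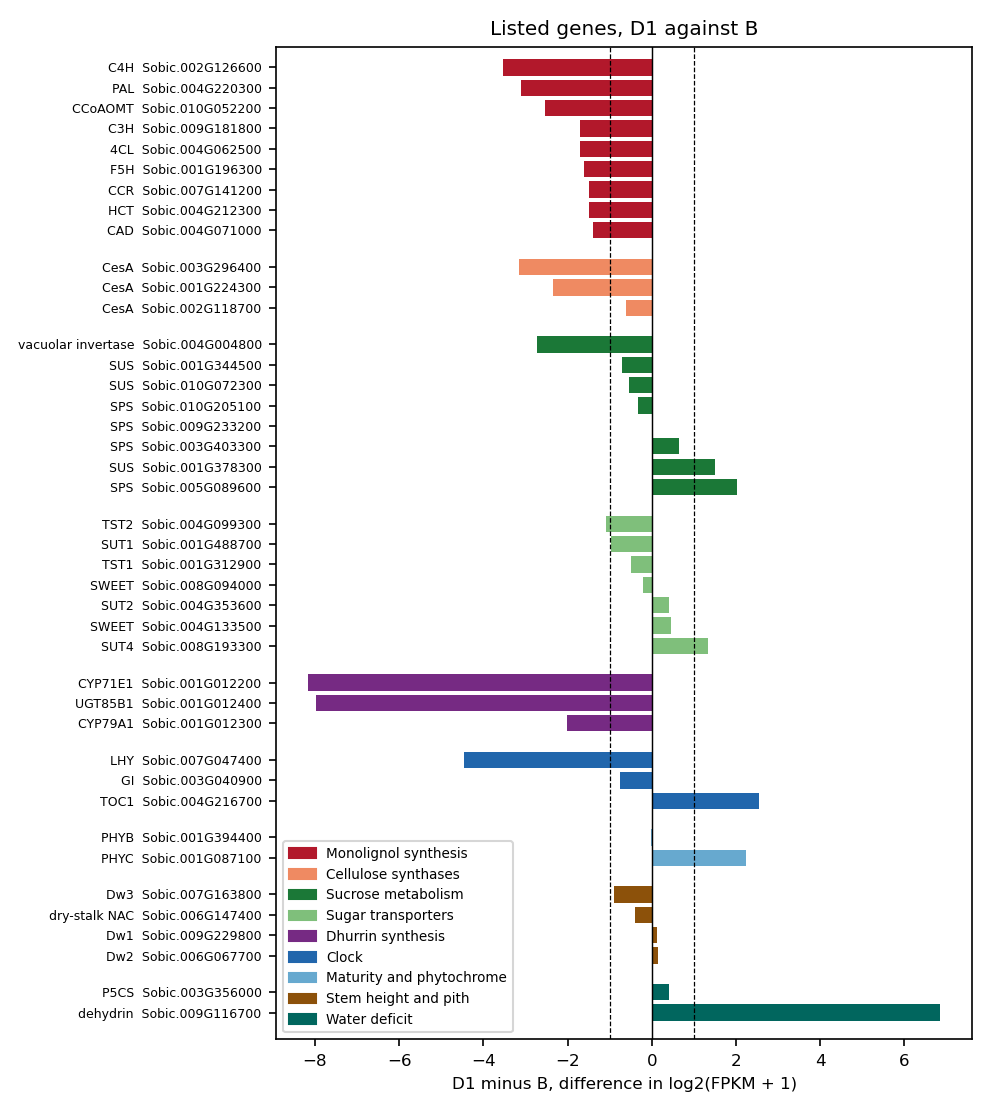
Difference D1 minus B in log2(FPKM + 1) for the 41 measured genes of the 9 lists, 1 bar per gene, with dashed lines at 2-fold. Bars reach from -8.16 for CYP71E1 to 6.85 for the dehydrin gene. The 4 genes of stem height and pith stay between the dashed lines, as do 77.1% of all genes.

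Every listed gene of monolignol synthesis was at least 2-fold lower in D1 than in B. In this list, chosen with earlier results of these data known, all 9 of 9 were called lower, beside 9.56% of all genes. The list median was -1.70 beside 0.06 over all genes. The FPKM of the 9 genes summed to 2134 in B and 387 in D1, and folds ran from 2.68 to 12.7. The sum over the same 9 genes was 5458 in FI, 1378 in MS, 1956 in SD, 486 in D2 and 484 in D3, so all 3 pot columns lay below all 4 stages of the soil bed. Gene by gene this was not always so, since PAL in D2 and CAD in D2 and D3 lay above the lowest stage. PAL, whose row is uncertain as described below, made up much of these sums. It supplied 1053 FPKM in B, 121 in D1, 4139 in FI and 265 in D2. D1 alone lay below all 4 stages for 22.2% of all genes and for 76.4% of those called lower. The share of genes with every pot column below every stage was not counted.

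The 3 genes of the entry into the pathway were followed first. PAL (Sobic.004G220300, phenylalanine ammonia-lyase, which removes the amino group of phenylalanine) was at 1053 FPKM in B and 121 in D1, 8.69-fold lower. Its row covers other extents in the 2 tables, from 57051382 to 57086639 on chromosome 4 in the stage table and to 57069724 in the drought table, and shares its locus with rows of neighbouring identifiers in both, so its fold is uncertain. C4H (Sobic.002G126600, cinnamate 4-hydroxylase, chromosome 2, 17292183 to 17296557) had the largest difference of the list. It was at 118 FPKM in B and 9.26 in D1, 12.7-fold lower, and at 50.1 in D2 and 33.4 in D3. A second row on its locus was listed at 0 in both columns. 4CL (Sobic.004G062500, 4-coumarate CoA ligase, chromosome 4, 5041259 to 5046446) was at 101 FPKM in B and 30.4 in D1, 3.33-fold lower, with 4.10 in D2 and 16.6 in D3.

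Shikimate esters carry the next hydroxylation of the ring. HCT (Sobic.004G212300, which forms and later opens the ester) was at 116 FPKM in B and 40.8 in D1. C3H (Sobic.009G181800, the hydroxylase acting on that ester) was at 68.2 and 20.2 FPKM, 3.37-fold lower. Both genes were lower again in D2 and D3, HCT at 31.3 and 23.5 FPKM and C3H at 7.22 and 11.2 FPKM.

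Methylation and reduction complete the monolignols. CCoAOMT (Sobic.010G052200, caffeoyl-CoA O-methyltransferase, chromosome 10, 4071577 to 4073478) was at 404 FPKM in B and 68.5 in D1, 5.90-fold lower. Its stage values were 616 in FI, 524 in MS and 1115 in SD, and its D2 and D3 values were 47.4 and 58.8, so no pot column came near the soil bed. F5H (Sobic.001G196300, the hydroxylase that opens the syringyl branch) was at 18.4 and 5.31 FPKM, beside 5.45 in MS and 5.97 in SD. CCR (Sobic.007G141200, cinnamoyl-CoA reductase) was at 155 and 54.1 FPKM, 2.86-fold lower. CAD (Sobic.004G071000), the dehydrogenase that yields the finished cinnamyl alcohols, had the smallest difference of the list, at 100.5 FPKM in B and 37.5 in D1, and stood at 43.9 in MS.

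**Figure D3:**
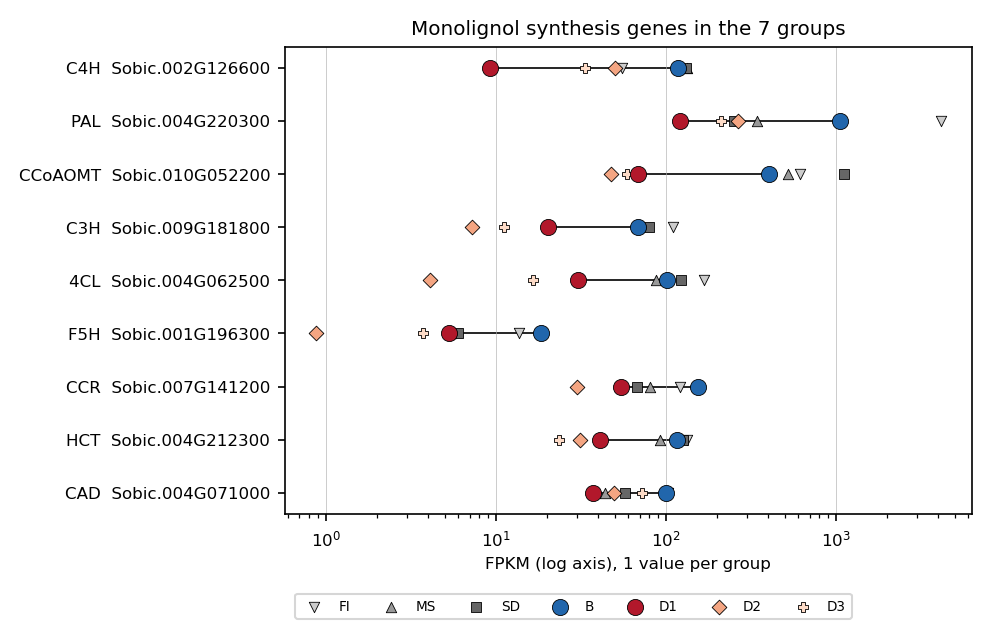
FPKM of the 9 monolignol synthesis genes on a log axis, with 1 point for each of the 7 groups and a line joining B and D1. D1 lies left of B for every gene, by 2.68-fold for CAD and 12.7-fold for C4H.

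Among the 3 listed cellulose synthases, which spin cellulose chains at the plasma membrane, 2 were at least 2-fold lower in D1, beside 9.56% of all genes. Sobic.003G296400 (chromosome 3, 62851273 to 62857742) was at 23.4 FPKM in B and 1.74 in D1, 13.5-fold lower. Sobic.001G224300 (chromosome 1, 21485581 to 21489706) was at 12.9 and 1.74 FPKM, 7.42-fold lower. Both were also low in the watered bed at the milky stage, at 3.54 and 1.91 FPKM. The more abundant Sobic.002G118700 lay within 2-fold, at 82.1 FPKM in B and 53.2 in D1.

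Dhurrin synthesis showed the largest decreases of all genes ranked. Of 9709 single-gene rows with a locus of their own, values above 0 in both columns and at least 5 FPKM in the higher, the 2 largest decreases belonged to CYP71E1 and UGT85B1. CYP71E1 (Sobic.001G012200, chromosome 1, 1048570 to 1050688), the second P450 enzyme of the pathway, was at 393 FPKM in B and 0.373 in D1, a log2 difference of -8.16. UGT85B1 (Sobic.001G012400, chromosome 1, 1152500 to 1153979), which adds the glucose, was at 332 FPKM in B and 0.314 in D1, a difference of -7.98. CYP79A1 (Sobic.001G012300, chromosome 1, 1144010 to 1146367), which starts the pathway from tyrosine, was already low in B at 3.06 FPKM and was at 0.0136 in D1. All 3 of 3 list members were called lower in D1, beside 9.56% of all genes, with a list median of -7.98. With a pseudocount of 5 the difference of CYP79A1 was -0.68, under the 2-fold limit.

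The 3 genes were low in every pot column. Their FPKM summed to 727 in B, 476 in FI, 334 in MS and 722 in SD, and to 0.701 in D1, 1.09 in D2 and 5.00 in D3. Most of the D3 sum came from UGT85B1 at 4.17 FPKM.

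They lie within a stretch of 5 neighbouring genes on chromosome 1 (1048570 to 1176242), all called lower in D1. Sobic.001G012500 was at 1095 FPKM in B and 236 in D1, 4.64-fold lower, and stood apart from its neighbours in the drier pots, at 4814 FPKM in D2 and 1542 in D3. Sobic.001G012600 was at 195 FPKM in B and 69.3 in D1, 2.81-fold lower, with 147 in D2 and 113 in D3. Its nearest neighbours were not called. On the left Sobic.001G012100 was at 17.4 FPKM in B and 17.0 in D1, but the next gene, Sobic.001G012000, was called lower again, at 2.78 FPKM in B and listed at 0 in D1. On the right Sobic.001G012700 stayed under 1 FPKM and Sobic.001G012800 was at 9.23 and 9.45 FPKM.

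**Figure D4:**
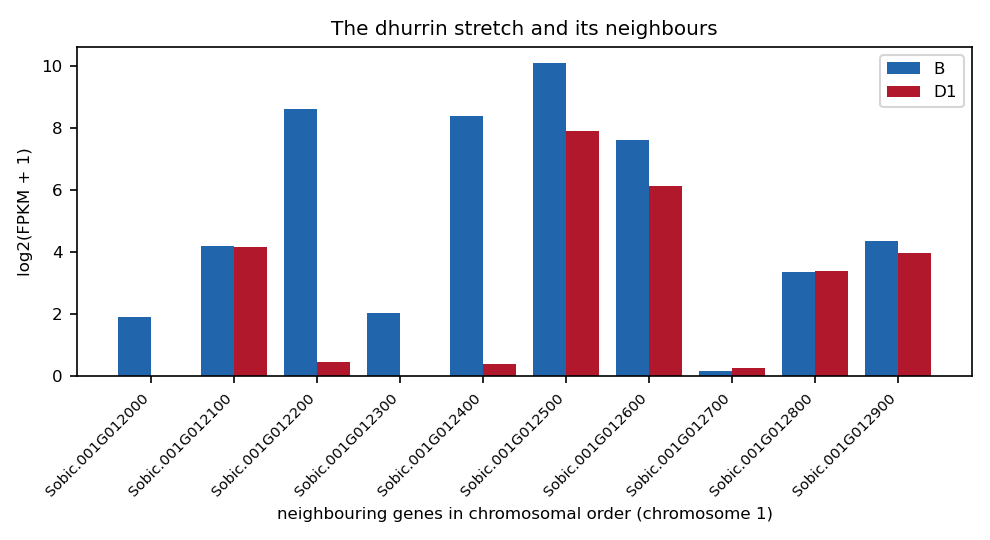
Levels in B and D1, in log2(FPKM + 1), of 10 neighbouring genes of chromosome 1 in chromosomal order. The 5 genes from Sobic.001G012200 to Sobic.001G012600 have lower bars in D1 than in B, and CYP71E1 (Sobic.001G012200) and UGT85B1 (Sobic.001G012400) stand near 0 in D1.

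Runs of neighbours called in the same direction were few, and the counts given here include the stretch with the dhurrin genes. Among 13270 single-gene rows with a locus of their own in chromosomal order, runs of 4 or more numbered 7 for higher and 4 for lower genes. Genes outside these rows were skipped, so neighbours in a run need not be adjacent on the chromosome. The longest was a run of 6 lower genes on chromosome 2 (1355813 to 1475820), from Sobic.002G015266 at 15.6 FPKM in B and 0.203 in D1 to Sobic.002G016300 at 8.02 and 2.17 FPKM. On chromosome 10 (4692108 to 4746698) 5 neighbours were higher, among them Sobic.010G059800 at 3.18 FPKM in B and 51.0 in D1. On chromosome 9 (199978 to 227090) another 5 were higher, with Sobic.009G002400 at 0.532 and 18.2 FPKM. How often neighbours would line up without any shared cause was not tested.

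In sucrose metabolism 2 of 8 measured genes were called higher, 1 lower and 5 within 2-fold, with a median of -0.17 over the list. Over all genes 13.3% were higher and 9.56% lower, so 1 lower gene of 8 is near the share of all genes. Vacuolar invertase (Sobic.004G004800, chromosome 4, 418238 to 423162), which splits stored sucrose, was at 9.61 FPKM in B and 0.603 in D1, 15.9-fold lower. Its values were also low in D2 at 0.0343 and in D3 at 0.689 FPKM, while the soil bed showed 8.79 in MS and 1.95 in SD.

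Sucrose synthases, which cleave sucrose reversibly, differed in direction. Sobic.001G378300 (chromosome 1, 66642502 to 66650446) was at 20.7 FPKM in B and 60.9 in D1, 2.94-fold higher, close to its 71.1 in MS. The 2 more abundant genes lay within 2-fold and were lower in D1, Sobic.010G072300 at 818 and 559 FPKM and Sobic.001G344500 at 110 and 66.8 FPKM. Among the sucrose phosphate synthases, which make sucrose in the cytosol, Sobic.005G089600 (chromosome 5, 12853198 to 12859672) was called higher, at 0.522 and 5.22 FPKM. The most abundant of them, Sobic.009G233200, had nearly the same value in both columns, 75.3 FPKM in B and 75.2 in D1. Sobic.003G403300 was at 16.1 and 25.8 FPKM and Sobic.010G205100 at 10.8 and 8.35 FPKM.

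Of the 10 listed sugar transporters 7 were measured, with 1 called higher, 1 lower, 5 within 2-fold and a list median of -0.21, which is near the 13.3% higher and 9.56% lower over all genes. SUT4 (Sobic.008G193300, chromosome 8, 62665982 to 62671469), a vacuolar sucrose transporter, was at 139 FPKM in B and 355 in D1, 2.55-fold higher. It was at 332 in D2 and 299 in D3, and between 67.6 and 164 in the 4 stages, so every pot column lay above every stage. Among genes called higher, D1 alone lay above all 4 stages for 83.3%, and over all genes for 32.1%. The share of genes with every pot column above every stage was not counted. TST2 (Sobic.004G099300, chromosome 4, 8829373 to 8834611), which loads sugars into the vacuole, was at 237 FPKM in B and 111 in D1, 2.12-fold lower, with 175 in D2 and 188 in D3. TST1 (Sobic.001G312900) was within 2-fold, at 269 and 191 FPKM.

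The plasma membrane carriers lay within 2-fold. SUT1 (Sobic.001G488700), which moves sucrose with protons, was at 120 FPKM in B and 61.2 in D1, a difference of -0.97. In the drought table its row shares a locus with 10 other rows, which was not so in the stage table, and its call passed 2-fold after median ratio rescaling (-1.03). The SWEET genes, whose proteins let sugars move down their gradient, were at 210 and 180 FPKM for Sobic.008G094000 and at 41.2 and 56.8 FPKM for Sobic.004G133500. SUT2 (Sobic.004G353600) was at 23.1 and 31.3 FPKM. SUT3, SUT5 and SUT6 stayed under 1 FPKM in B and in the 3 pot columns.

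The clock genes differed in opposite directions. LHY (Sobic.007G047400, chromosome 7, 4745498 to 4758130), a morning factor of the plant clock, was at 180 FPKM in B and 7.28 in D1, 24.7-fold lower. TOC1 (Sobic.004G216700, chromosome 4, 56625603 to 56628817), an evening factor that represses LHY, was at 19.0 FPKM in B and 117 in D1, 6.14-fold higher. GI (Sobic.003G040900), which acts late in the day, lay within 2-fold at 263 and 155 FPKM. In D2 and D3 LHY stood at 40.1 and 26.0 FPKM and TOC1 at 51.6 and 74.1, so D1 held the lowest LHY and the highest TOC1 value of the 7 columns. None of the sources used here gives the hour of harvest, and the part of the time of day in any difference between D1 and B was not tested.

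Of the phytochromes, the red light receptors, PHYC (Sobic.001G087100, chromosome 1, 6748035 to 6753421) was at 15.3 FPKM in B and 75.2 in D1, 4.92-fold higher. It was at 80.9 in D2 and 63.2 in D3 and between 11.6 and 26.4 in the stages, so for this gene the pots and the bed did not overlap. How many of all genes show such a gap was not counted. D1 alone lay above all 4 stages for 32.1% of all genes and for 83.3% of those called higher. PHYB (Sobic.001G394400) was at 7.43 and 7.36 FPKM. PHYA shared its row with another gene model (704 FPKM in B and 339 in D1) and was not counted, and the flowering repressors PRR37 and Ghd7 stayed under 1 FPKM in these columns.

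All 4 genes of stem height and pith lay within 2-fold, as did 77.1% of all genes, so the count does not set them apart. Dw1 (Sobic.009G229800) was at 9.69 FPKM in B and 10.6 in D1, and Dw2 (Sobic.006G067700) at 33.2 and 37.1 FPKM. Dw3 (Sobic.007G163800), an auxin exporter, was at 22.2 and 11.5 FPKM. For the dry-stalk NAC gene (Sobic.006G147400), whose transcription factor decides between juicy and dry pith, the values were 158 and 119 FPKM. These 2 were lower again in D2, Dw3 at 5.82 and the NAC gene at 66.2 FPKM.

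Of the 2 listed water deficit genes, the dehydrin was far higher in D1. The dehydrin gene (Sobic.009G116700, chromosome 9, 45915614 to 45916682) was at 0.0699 FPKM in B and 123 in D1, a log2 difference of 6.85 and the second largest increase among the ranked genes. It was not confined to the pots, since the bed showed 7.54 FPKM in FI, 24.2 in MS and 24.0 in SD. Within the pots its value was lower at the drier readings, at 52.4 FPKM in D2 and 24.7 in D3. P5CS (Sobic.003G356000), which makes the precursor of proline, lay within 2-fold in D1, at 164 and 218 FPKM, beside 569 in D2 and 501 in D3. Its highest value was in the bed, 950 FPKM in MS.

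The 12 largest increases in D1 ranged from 5.10 to 7.69 on the log2 scale, and 9 of these genes were under 1 FPKM in B. Apart from the dehydrin they are given by identifier, since the tables pair them with no description. The largest was Sobic.005G157600 (chromosome 5, 62968476 to 62970416), at 0.0339 FPKM in B and 213 in D1. It was at 28.1 in D2 and 30.4 in D3 and reached no more than 2.21 FPKM in the stages. Sobic.010G045100 (chromosome 10, 3499964 to 3502278) was at 0.0119 FPKM in B and 83.9 in D1, with 24.2 in D2 and 24.6 in D3, and stayed under 1 FPKM in all 4 stages. Sobic.001G492000 (chromosome 1, 76161219 to 76162658) behaved likewise, at 0.0101 FPKM in B, 38.0 in D1, 57.8 in D2 and 46.2 in D3, with at most 0.965 in the stages.

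The remaining increases included genes with sizeable stage values. Sobic.003G397400 (chromosome 3, 70714984 to 70715693) was the most abundant of the 12, at 35.8 FPKM in B and 1525 in D1. Its values were higher still in the drier pots, 3881 in D2 and 5220 in D3, and 374 in MS and 342 in SD. Sobic.001G109000 was at 0.414 FPKM in B and 97.5 in D1, Sobic.004G284200 at 0.841 and 120, and Sobic.001G158700 at 0.274 and 69.1. Sobic.001G235800 was at 0.384 and 63.8 FPKM and Sobic.007G109800 at 0.439 and 49.7. The 2 others were already expressed in B, Sobic.001G138000 at 4.59 FPKM against 214 in D1 and Sobic.001G424400 at 1.21 against 75.0. D1 was the highest of the 7 columns for 8 of the 12 genes and B the lowest for 7, which the ranking itself favours.

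The 12 largest decreases ranged from -8.16 to -5.54, and 7 of these genes were under 1 FPKM in D1. After the 2 dhurrin genes came Sobic.004G228900 (chromosome 4, 57867256 to 57868252), at 309 FPKM in B and 0.978 in D1, with 24.2 in D2 and 15.2 in D3. Sobic.009G163900 (chromosome 9, 52032824 to 52036139) was at 447 FPKM in B and 4.40 in D1, with 81.4 in D2 and 52.5 in D3. For both genes the drier pots lay between D1 and B.

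Sobic.003G039400 (chromosome 3, 3695195 to 3696666) showed the same order, at 184 FPKM in B, 2.66 in D1, 167 in D2 and 67.7 in D3. Sobic.006G005600 was at 141 FPKM in B and 1.46 in D1, and at 38.9 in D2. Another 4 stayed under 3 FPKM throughout the pots. Sobic.005G064700 (chromosome 5, 7243260 to 7246581) was at 73.5 FPKM in B and 0.348 in D1, with 0.738 in D2 and 1.25 in D3, beside 80.0 in FI, 148 in MS and 90.1 in SD. Sobic.006G230700 was at 128 FPKM in B and 0.802 in D1, Sobic.002G386000 at 86.1 and 0.183, and Sobic.010G178500 at 59.0 and 0.170. For the last 2 the drier pots again lay between D1 and B. Sobic.009G134450 was at 265 FPKM in B and 3.56 in D1, with 18.4 in D2 and 21.4 in D3. Sobic.010G146700 was at 111 and 1.41 FPKM, with 15.7 in D2 and 16.9 in D3. D1 was the lowest of the 7 columns for 11 of the 12 genes and B the highest for 8, which the ranking itself favours.

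**Figure D5:**
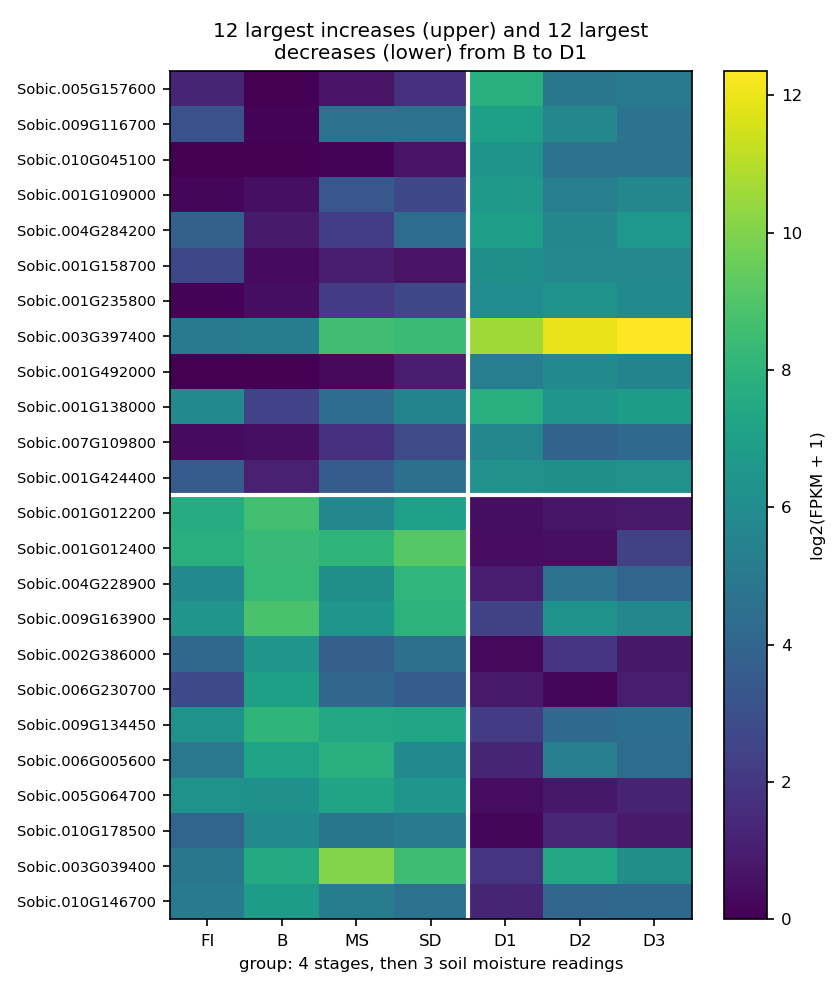
Levels in log2(FPKM + 1) of the 12 genes with the largest increase (upper block) and the 12 with the largest decrease (lower block) from B to D1, in the 4 stages and the 3 soil moisture readings. Sobic.003G397400 reaches the highest level shown, in D3 at 5220 FPKM, and both dhurrin genes are dark in all 3 pot columns except for UGT85B1 in D3.

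Values listed at 0 need separate reading, since an exact 0 in such tables can be a failed estimate. In B 99 of the genes kept were listed at 0, in D1 48, and 6 in both. For 5 genes B was listed at 0 although each of the other 6 columns held at least 5 FPKM, and the same was so for 2 genes in D1. The most abundant gene of B, Sobic.001G141300, was at 10536 FPKM there and at 23987 in D2 and 19778 in D3, but was listed at 0 in D1. A second row on its locus in the drought table, Sobic.001G141200, was listed at 0 in D1 as well. Sobic.002G324200, the most abundant gene of D1 at 6377 FPKM, was listed at 0 in B and in MS while FI held 12502 and SD 13868 FPKM.

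Of the 5 highest D1 values among genes listed at 0 in B, 2 more had large values in other columns. Sobic.008G136000 was at 1435 FPKM in D1 and 2830 in MS, and a 4-model row that begins with Sobic.010G182100 was at 2661 in D1 and 2327 in D3 but listed at 0 in D2 and in all 4 stages. The other 2 were listed at 0 in both B and FI and stayed under 1 FPKM in every stage, Sobic.003G023732 at 54.1 FPKM in D1 and Sobic.009G025500 at 51.1. Sobic.003G023732 shares its locus with another row, as do Sobic.008G136000 and the 4-model row. Of the genes listed at 0 in D1, Sobic.006G206900 (chromosome 6, 55659576 to 55662367) was listed at 0 in all 3 pot columns and was between 44.4 and 72.3 FPKM in the 4 stages. Sobic.010G151801, Sobic.002G121100 and Sobic.010G146200 had values above 1 FPKM in B alone, at 41.0, 17.6 and 16.7 FPKM. The row of Sobic.010G151801 shares its locus with another row. It runs from 44040607 to 44089945 in the stage table but from 44052482 to 44053926 in the drought table, so its difference is uncertain. Without the rows listed at 0 in either column, 2184 genes were higher and 1572 lower in D1.

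The levels of the called genes in the rest of the series were read from the 5 columns that made no call. D2 and D3 share the drought table with D1, and FI, MS and SD the stage table with B. They are therefore not independent of the call, and D2 and D3 also entered the filter. Any part of the separate tables in these medians was not tested. The 2244 genes higher in D1 had median levels of 5.72 FPKM in FI, 3.87 in MS and 3.85 in SD, against 11.7 in D2 and 13.3 in D3. For the 1607 lower genes the medians were 15.8 in FI, 15.0 in MS and 15.4 in SD, against 4.55 in D2 and 5.31 in D3. Over all 16817 genes every column had a median between 10.2 and 11.3 FPKM.

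Calls were spread over all 10 chromosomes. The share of genes higher in D1 ran from 11.4% on chromosome 5 to 14.5% on chromosomes 3 and 7, and the share lower from 8.94% on chromosome 7 to 11.7% on chromosome 5. The shortest loci had the highest share of calls. Of 5 equal groups by locus length, the shortest, up to 2463 bases, had 20.8% of genes higher and 13.2% lower, whereas in the longest, from 7891 bases, the shares were 11.4% and 8.65%. The 3 groups between had 10.1% to 13.4% higher and 8.39% to 8.95% lower. By mean level, both shares were smallest under 1 FPKM, at 8.81% higher and 6.94% lower. Between 1 and 5 FPKM 15.4% of genes were higher and 10.4% lower, and among the 1269 genes at 100 FPKM or more 10.6% were higher and 11.7% lower. Genes whose row had the same coordinates in both tables were called higher in 12.8% of cases and lower in 9.57%, and those with other coordinates in 15.0% and 9.50%. The part of locus length or matching in the calls was not tested.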

How the data were processed

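RNA was sequenced from middle internodes, and per the labels libraries were made with a stranded total RNA kit. The deposited values are FPKM, computed by the authors and deposited in a stage table and a drought table, where per the file headers each group has a single column. Tools listed, with no roles, in the submitters' processing notes are HISAT2 2.0.5, Bowtie2 2.2.9, Cuffdiff and cutadapt 1.8.1. Neither the genome build nor the way in which a group's samples were merged is given in the sources used here, and coordinates are those of the stage table. FPKM keeps no read counts, so depth and the precision it gives are unknown.

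The tables held 34755 and 32726 rows. Names found once in each were matched, and of the 16817 genes kept, 861 rows covered several gene models, 2912 shared their locus with another row and 12819 had the same coordinates in both tables. The pseudocount was 1 FPKM. With 1 value per group no test was run, and the limma fit foreseen for replicate columns did not apply. The calling step was run on simulated folds beyond the 2-fold limit, without noise. That checks the code alone and not the calls made here.

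The members and gene lists were chosen with earlier results of these data known. Named genes were all list members except 1 not reported here, the 12 largest increases and decreases, and the 5 highest genes listed at 0 in the other column. Gene families were also to be filled by description, as were markers of green tissue and grain, but the reference table used here (RefSeq names, assembly Sorghum_bicolor_NCBIv3) pairs no description with Sobic identifiers, so these lists had no members and the tissue could not be checked against them. Alternatives were other pseudocounts, filters, scalings and matching rules. Computation used numpy 2.4.6 and pandas 2.3.3 under Python 3.11.15, and plots matplotlib 3.10.9.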

Additional observations from a re-analysis of the deposited data

How the results depend on the processing

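No paired analysis was possible because the tables give 1 value per group, and for the same reason no replicate could be left out. With a pseudocount of 5 the counts were 1149 genes higher and 849 lower, and with one of 0.1 they were 3052 and 2063. Other planned settings kept the counts within 1.5 times, at 1953 higher and 1817 lower after quantile normalization, 2078 and 1717 after median ratio rescaling, 1496 and 1093 with a mean of at least 5 FPKM and 1643 and 1227 for rows with the same coordinates. The 2 settings added after seeing the data left out rows listed at 0, or rows that share a locus or hold several models. The latter gave 1710 higher and 1294 lower of 13292 genes. In sucrose metabolism 1 member, not 2, was higher with a pseudocount of 5, where Sobic.005G089600 stood at 0.89, and with a mean of at least 5 FPKM, which left that gene out. After median ratio rescaling 2 transporters were lower, SUT1 being the second. For rows with the same coordinates 0 clock genes were higher, since TOC1 was left out. Without shared loci 0 clock genes were lower, because LHY was left out, and the transporter median was 0.10. Alternatives that only add or leave out rows cannot change a gene's value, so agreement under them was fixed beforehand. Only the pseudocounts and scalings could move a value, and many named genes were picked for large differences. With that limit, over 72 named genes and 9 alternatives, 606 of 609 values kept direction and side of the 2-fold limit and 0 reversed. The third exception was CYP79A1, at -0.68 with a pseudocount of 5.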

Other observations

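Some expressed rows entered no comparison, because their names were not found once in each of the 2 tables. Of 724 named rows of the stage table without a match, 513 reached 1 FPKM in B, and 499 of 698 such drought rows reached it in D1. The highest were a 3-model row that begins with Sobic.006G231100 at 2409 FPKM in B and a row of Sobic.002G244800 and Sobic.002G244901 at 3009 FPKM in D1. Sobic.009G197000 was at 1245 FPKM in D1 as a row of its own. A further 2003 rows of the stage table carried no gene name, and 175 of these reached 10 FPKM in B.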
